A study of Mus musculus with 2 samples.

Results

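Genomic imprinting is the expression of a gene from only the maternal or only the paternal chromosome, set by DNA methylation that is laid down in the egg or the sperm and kept through the divisions of the early embryo. Imprinted genes lie in clusters, in which a control region methylated on one parental allele sets the expression of several genes, and many of them act on growth of the embryo and the placenta. ES cells come from the stage at which imprints must be kept while methylation elsewhere is lost and regained, and their imprints are known to drift in culture. The 52 genes described here are a list of imprinted genes at 22 loci, taken from general knowledge of the field and grouped by locus and by the allele that is usually expressed. All 52 were found by name among the 26127 probes with RPKM (read density scaled for transcript length and library size). Of these genes, 25 are maternally and 26 paternally expressed, and Gnas depends on the isoform.

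Mouse ES cells of strain 129S1/SvImJ at passage below 20 were grown in serum and leukaemia inhibitory factor. WT cells were unmodified (H3f3a+/+; H3f3b+/+). G34R cells carried one targeted allele of the histone H3.3 gene H3f3a that encodes arginine in place of glycine 34 (H3f3a+/G34R; H3f3b+/+), which was made by conditional replacement and Cre excision followed by selection of mutant clones, and is transcribed from the H3f3a promoter as a minigene. Each line gave 1 library of total RNA, without replicates, so no difference can be set against the spread between cultures or clones, and no test was made. RPKM per gene sums both parental alleles, and both cell lines come from one inbred strain, so a level says nothing of which allele was transcribed.

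Differences are given as fold or as the log2 ratio of G34R to WT RPKM, for which 0.01 RPKM served as a floor. The interval beside a fold is the exact 95% binomial interval on estimated reads, and covers counting error only. From the RPKM steps of short single-exon genes, 88.3 and 72.9 M reads were estimated in the WT and G34R libraries, so 1 read on 1 kb of transcript was worth 0.0113 and 0.0137 RPKM. H3f3a itself had 8.17 RPKM in WT and 4.89 RPKM in G34R cells, and these values do not separate its alleles. The ES cell genes Pou5f1 (194.34 and 189.46 RPKM) and Sox2 (73.83 and 75.05 RPKM) were high in both lines. Beyond H3f3a, the lines also differed at Hprt (1.31 and 48.39 RPKM) and over chromosome 8, where the median log2 ratio of 595 genes with at least 1 RPKM was 0.36. On chromosome Y the median of 5 such genes was -3.91. No imprinted gene of the list lies on chromosome 8, X or Y.

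Start regions of 5 genes whose RPKM differed by more than 2-fold are shown, for the ZFP57 motif in 3 of them and the shared start of the other two. The sequences are RefSeq promoters of GRCm38.p6, from 250 bases before to 50 bases after the annotated start, 5′ to 3′ on the strand of the gene. Capitals mark TGCCGC or its reverse complement, the 6 bases that the zinc finger protein ZFP57 recognises when methylated. The Meg3 promoter (chr12:109540746-109541045, plus strand) and the upstream Grb10 promoter (chr11:12037371-12037670, minus strand) each held 1 match, and that of the imprinted Mest isoform (chr6:30737800-30738099, plus strand) held 2. Peg3 (chr7:6730370-6730669, minus strand) and Usp29 (chr7:6730333-6730632, plus strand) start head to head, and their promoters share 263 bases on opposite strands.
Meg3: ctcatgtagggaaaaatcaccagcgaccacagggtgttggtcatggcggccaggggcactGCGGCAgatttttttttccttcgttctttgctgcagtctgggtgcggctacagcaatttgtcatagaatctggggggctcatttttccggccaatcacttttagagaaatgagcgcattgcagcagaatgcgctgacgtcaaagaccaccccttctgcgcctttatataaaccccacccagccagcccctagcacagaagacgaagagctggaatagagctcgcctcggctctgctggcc
Grb10: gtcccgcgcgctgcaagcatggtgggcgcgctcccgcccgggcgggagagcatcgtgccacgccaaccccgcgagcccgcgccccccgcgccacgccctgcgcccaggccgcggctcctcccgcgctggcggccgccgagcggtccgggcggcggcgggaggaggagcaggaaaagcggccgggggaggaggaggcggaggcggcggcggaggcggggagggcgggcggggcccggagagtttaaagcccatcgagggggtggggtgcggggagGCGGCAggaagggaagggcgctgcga
Mest: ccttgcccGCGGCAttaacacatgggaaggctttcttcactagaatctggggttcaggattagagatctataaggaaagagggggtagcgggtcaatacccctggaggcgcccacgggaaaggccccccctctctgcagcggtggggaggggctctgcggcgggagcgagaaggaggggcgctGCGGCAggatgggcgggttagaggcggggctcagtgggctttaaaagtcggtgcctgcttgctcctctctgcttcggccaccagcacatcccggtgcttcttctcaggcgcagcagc
Peg3: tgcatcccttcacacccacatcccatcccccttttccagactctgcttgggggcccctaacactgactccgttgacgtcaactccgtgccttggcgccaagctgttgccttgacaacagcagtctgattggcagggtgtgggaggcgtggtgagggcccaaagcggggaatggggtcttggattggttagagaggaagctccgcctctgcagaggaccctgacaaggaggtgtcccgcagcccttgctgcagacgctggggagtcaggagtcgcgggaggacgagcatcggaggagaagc
Usp29: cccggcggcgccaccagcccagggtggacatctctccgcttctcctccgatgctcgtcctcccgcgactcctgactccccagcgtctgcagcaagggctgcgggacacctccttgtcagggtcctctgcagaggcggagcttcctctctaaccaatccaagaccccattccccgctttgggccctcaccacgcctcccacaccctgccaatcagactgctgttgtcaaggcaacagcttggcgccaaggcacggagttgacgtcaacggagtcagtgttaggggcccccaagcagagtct

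Of the 52 genes, 42 had 1 or more RefSeq promoters, 67 in all. The 6-base motif was found on either strand in 15 of these promoters (22.4%) and in 11.6% of all 32851 promoters of the same length. The imprinted promoters held a median of 15 CpG and all promoters 7, and the motif itself holds a CpG. Of the 42 genes, 14 had the motif in 1 or more promoters. Besides Meg3, Grb10 and Mest these included Igf2, but also genes within 2-fold such as Copg2, Mcts2 and Snrpn. The promoters of Rian, Mirg, Dlk1, Dio3, Peg3, Usp29, Peg12 and Slc22a18, which also differed by more than 2-fold, held none. Whether the motif bears on the differences was not tested. A match is no evidence of binding, and binding was not measured here.

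Among the 39 imprinted genes with at least 0.25 RPKM in 1 library, RNA of 10 was more than 2-fold lower in G34R cells (25.6%), where 9.64% of all 13366 such genes were. More than 2-fold higher were 4 (10.3%), where 5.79% of all genes were, and 25 lay within 2-fold. The median log2 ratio was -0.37 (quartiles -1.03 and 0.28), against -0.07 (-0.41 and 0.27) for all genes, and 26 of 39 ratios were below 0 against 55.0% of all genes. The 14 genes that differed belong to 8 of the 22 loci, and 5 of the 10 lower genes belong to Dlk1-Dio3. Without that locus, an alternative chosen after the values were seen, 5 of 33 were lower, 4 were higher and the median was -0.29. Among the 14 imprinted genes with at least 10 RPKM in 1 library, 4 were lower (Rian, H19, Impact and Mest) and 2 higher (Peg3 and Grb10), where 3.87% and 3.37% of all 3467 such genes were. Of the remaining 13 imprinted genes, none reached 0.25 RPKM (the highest value was 0.23), and Slc22a2, Slc22a3 and Dcn were listed at 0 in both libraries.

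**Figure D1:**
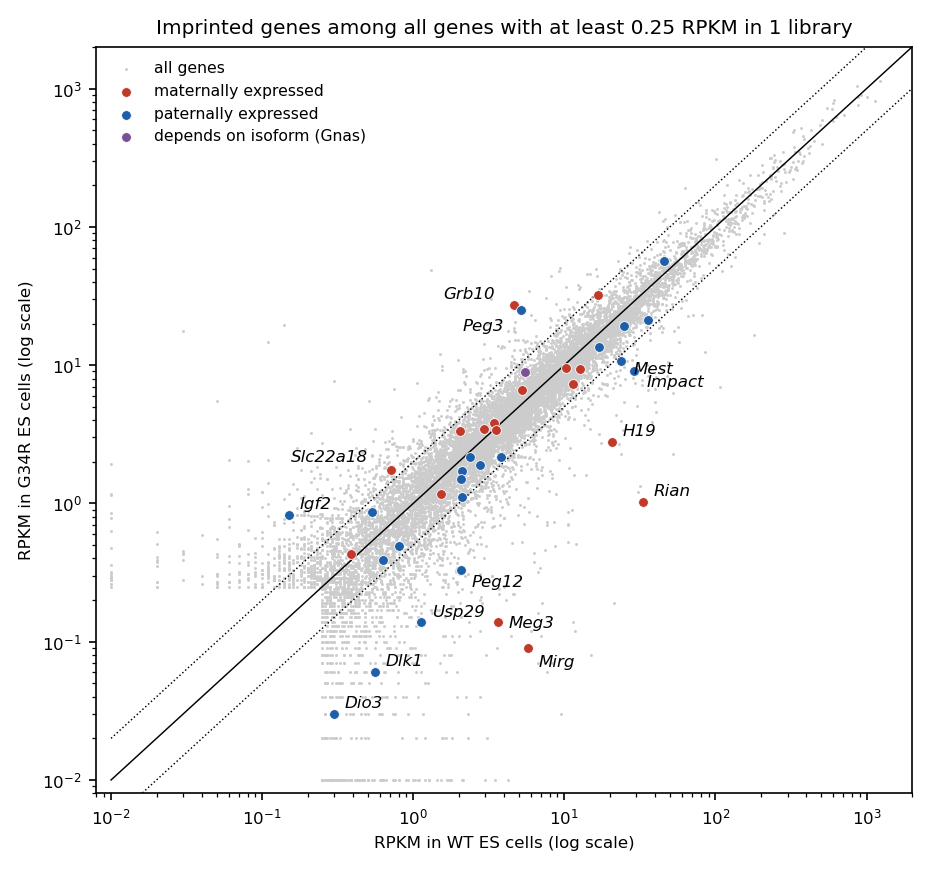
RPKM in WT cells (x axis) and G34R cells (y axis), both on log scales, for all genes with at least 0.25 RPKM in 1 library (grey) and the 39 imprinted genes among them, coloured by the allele usually expressed. Values under 0.01 are drawn at 0.01, the solid line marks equal RPKM and the dotted lines 2-fold differences, and the 14 labelled genes lie outside the dotted lines.

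By parental allele, 17 of the 25 maternally expressed genes and 21 of the 26 paternally expressed genes reached 0.25 RPKM. Among all genes with at least 0.25 RPKM in 1 library, 9.64% were lower and 5.79% higher by more than 2-fold, and 55.0% of ratios were below 0. Of the maternally expressed genes 4 were lower (23.5%) and 2 higher (11.8%), with a median log2 ratio of -0.06. Of the paternally expressed genes 6 were lower (28.6%) and 2 higher (9.52%), with a median of -0.69, and 17 of the 21 ratios were below 0. Without Dlk1-Dio3 these medians were 0.15 and -0.50. The sign of the maternal median turned with small choices, since centring each gene on its own chromosome gave 0.07. The 2 loci with values here whose control regions are methylated on the paternal allele, H19-Igf2 and Dlk1-Dio3, held 8 of the 39 genes. Of these 6 were lower, 5 of them at Dlk1-Dio3 and the sixth H19, and 1 was higher. RPKM summed over the 10 listed genes at such loci, with Rasgrf1 (0.01 and 0.00 RPKM), was 65.24 in WT cells and 5.46 in G34R cells. Most of the WT sum came from Rian (33.35 and 1.02 RPKM) and H19 (20.68 and 2.79 RPKM). At loci whose control regions are methylated on the maternal allele, 4 of 31 genes were lower (12.9%) and 3 higher (9.68%). Their median was -0.29, and RPKM summed over the listed genes at such loci was 281.95 and 287.10.

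**Figure D2:**
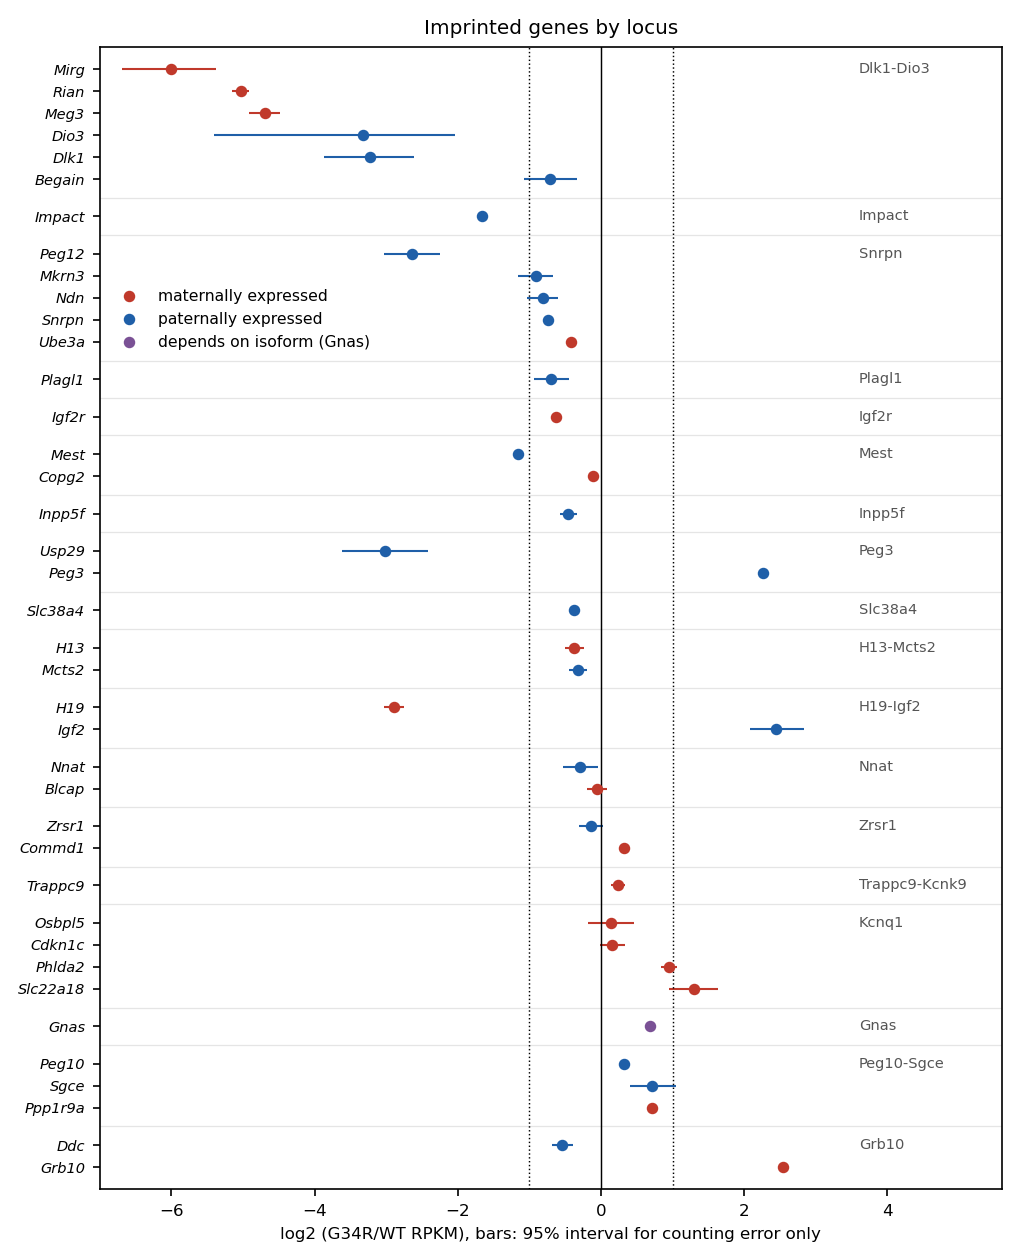
log2 (G34R/WT RPKM) of the 39 imprinted genes with at least 0.25 RPKM in 1 library, grouped by locus (names at right) and coloured by the allele usually expressed, with 95% intervals for counting error only. Dotted lines mark 2-fold, the Dlk1-Dio3 genes lie at the far left and the genes of H19-Igf2, Grb10 and Peg3 fall on both sides of 0.

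The lowest ratios of the 39 genes were at the Dlk1-Dio3 locus on chromosome 12, where 5 of 6 genes with at least 0.25 RPKM were more than 2-fold lower and the sixth was also below 0. On the maternal chromosome this locus makes the long non-coding RNAs Meg3, Rian (a host of snoRNAs) and Mirg (a host of microRNAs), which lie on 1 strand over 208.5 kb and are often regarded as 1 transcription unit, so they need not be independent. The paternal chromosome expresses the Notch ligand homologue Dlk1, the retrotransposon-derived Rtl1 and the deiodinase Dio3. Silencing of the maternal RNAs by methylation of both alleles is a known change of cultured pluripotent cells, but methylation was not measured in the files used here.

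Rian (ENSMUSG00000091793, mm9 110842155 to 110899919) had 33.35 RPKM in WT and 1.02 RPKM in G34R cells, which is 32.7-fold lower (30.1 to 35.5). Among the 3467 genes with at least 10 RPKM in 1 library, 4 had a lower ratio. Meg3 (ENSMUSG00000021268, 110779211 to 110809936) had 3.63 and 0.14 RPKM, a 25.9-fold lower level (22.3 to 30.1). Its promoter is the first sequence above. Mirg (ENSMUSG00000091158, 110973191 to 110987665) had 5.76 and 0.09 RPKM, from an estimated 1615 and 21 reads, which is 64.0-fold lower (41.4 to 103). Together the 3 RNAs had 42.74 RPKM in WT and 1.25 RPKM in G34R cells, 34.2-fold lower, and a low level was still measured for each. Of the 50-base stretches of Rian, 13.8% also occur elsewhere in the genome, compared with 3.8% for Meg3 and 0 for Mirg.

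The protein-coding genes of the paternal allele were low in both lines. Dlk1 had 0.56 RPKM in WT and 0.06 RPKM in G34R cells, which is 9.33-fold lower (6.13 to 14.5). Dio3 had 0.30 and 0.03 RPKM, an estimated 54 and 4 reads, 4.11- to 42.4-fold lower by its wide interval, around a log2 ratio of -3.32. Begain, at the edge of the domain, had 0.80 and 0.49 RPKM and lay within 2-fold. Dlk1 and Dio3 were thus lower together with the maternal RNAs. Rtl1, transcribed antisense to the maternal RNAs, went the other way, since it was listed at 0 in WT cells and had 0.02 RPKM, an estimated 9 reads, in G34R cells, both far under the filter.

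Genes outside the domain lay close to equal levels. Of 17 other probes within 500 kb of a gene of the locus, 9 had at least 0.25 RPKM, none of them was past 2-fold, and their log2 ratios ran from -0.41 to 0.27 (median -0.05). On the Dlk1 side Yy1, which encodes a zinc finger factor, had 14.03 and 13.49 RPKM, and on the Dio3 side the chaperone gene Hsp90aa1 had 342.05 and 269.24 RPKM. Over the 22 loci together, 18 of 153 such neighbours were lower (11.8%) and 8 higher (5.23%), close to the shares among all genes.

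**Figure D3:**
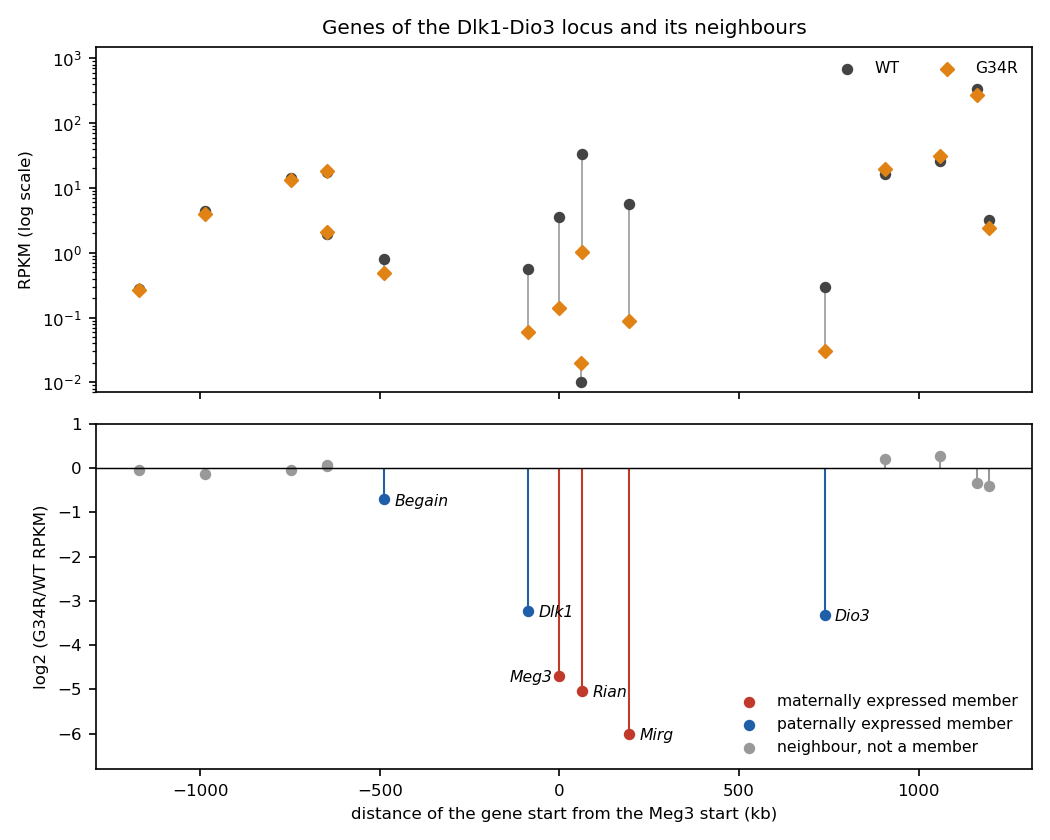
Genes of the Dlk1-Dio3 locus and neighbours within 500 kb, against the distance of their start from the Meg3 start in kb. The upper panel shows RPKM in WT (circles) and G34R (diamonds) cells on a log scale, with Rtl1 in WT cells (listed at 0) drawn at 0.01, and the lower panel shows log2 (G34R/WT RPKM), in which Mirg is the lowest gene and neighbours stay between -0.41 and 0.27.

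H19 and Igf2 on chromosome 7 differed in opposite directions. They share enhancers, and a control region bound by CTCF when unmethylated directs these to the non-coding RNA H19 on the maternal allele and to the growth factor gene Igf2 on the paternal allele. H19 (ENSMUSG00000000031, 149761434 to 149764048) had 20.68 RPKM in WT and 2.79 RPKM in G34R cells, 7.41-fold lower (6.75 to 8.17). Igf2 (ENSMUSG00000048583, 149836673 to 149852721), 72.6 kb away, had 0.15 and 0.82 RPKM, 5.47-fold higher (4.21 to 7.11). The direction was therefore opposite for the maternal and the paternal gene, while Igf2 was below 1 RPKM in both lines. Igf2r, whose product removes IGF2 from the cell surface, had 11.36 and 7.33 RPKM and lay within 2-fold, and its antisense silencer Airn had 0.01 and 0.02 RPKM.

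The neighbouring Kcnq1 locus holds maternally expressed genes that restrain growth, and its 4 listed genes with at least 0.25 RPKM all had ratios above 0. This did not hold for the genes around them. Of 11 other genes within 500 kb with at least 0.25 RPKM, 2 (Ascl2 and Tspan32, described below) were more than 2-fold lower. That is 18.2%, against 9.64% of all genes. None was more than 2-fold higher, and their median log2 ratio was -0.10. Slc22a18, a membrane transporter, had 0.71 RPKM in WT and 1.74 RPKM in G34R cells, 2.45-fold higher (1.93 to 3.11). Phlda2, a brake on placental growth, had 16.78 and 32.43 RPKM, just inside the threshold at 1.93-fold higher (1.79 to 2.08). It passed 2-fold when ratios were centred on the median of all genes with at least 1 RPKM. Cdkn1c, which encodes the cell cycle inhibitor p57, had 3.40 and 3.79 RPKM, and Osbpl5 had 0.39 and 0.43 RPKM, both with counting intervals that include no difference. The potassium channel gene Kcnq1 stayed under the filter at 0.01 and 0.09 RPKM.

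Grb10, maternally expressed in most tissues and an adaptor that dampens insulin and IGF signalling, had the highest ratio of the 39 imprinted genes. Its RNA (ENSMUSG00000020176, chromosome 11, 11830511 to 11938686) measured 4.64 RPKM in WT and 27.12 RPKM in G34R cells, 5.84-fold higher (5.64 to 6.05), and 8 of the 3467 genes with at least 10 RPKM had a higher ratio. The adjacent Ddc, which encodes aromatic amino acid decarboxylase and is paternally expressed in the heart, had 2.78 and 1.91 RPKM and lay within 2-fold below 0. Grb10, H19-Igf2 and Zrsr1 were the 3 loci, of 9 with values for both alleles, at which all maternal and all paternal genes lay on opposite sides of 0. At Zrsr1 both values were within 2-fold, and the counting interval of the paternal gene (a ratio of 0.81 to 1.02) includes no difference.

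At the Peg3 locus on chromosome 7 both measured genes are paternally expressed, and they differed in opposite directions. Peg3 (ENSMUSG00000002265, 6656603 to 6683132), a large zinc finger protein, had 5.17 RPKM in WT and 24.92 RPKM in G34R cells, 4.82-fold higher (4.69 to 4.96). Usp29 (ENSMUSG00000051527, 6913871 to 6916480), of the ubiquitin protease family, had 1.13 and 0.14 RPKM, 8.07-fold lower (5.34 to 12.3). The promoters of these genes overlap, as printed above. The Usp29 probe, however, is 1 exon of 2610 bases that lies 230.7 kb from the Peg3 start. Its values thus come from sequence far from the shared start. The maternally expressed zinc finger gene Zim1 had 0.16 and 0.11 RPKM. Of 15 other genes within 500 kb with at least 0.25 RPKM, 10 had ratios below 0 and 5 were more than 2-fold lower (33.3%, against 9.64% of all genes), with a median log2 ratio of -0.55. None was more than 2-fold higher, and the other 10 lay within 2-fold. The 5 lower genes were Aurkc (2.78 and 0.12 RPKM), Zscan5b (1.41 and 0.17), Zfp28 (1.55 and 0.52), Zfp773 (0.63 and 0.11) and Gm3912 (0.46 and 0.08). Aurkc encodes a germ cell Aurora kinase, and Zscan5b, Zfp28 and Zfp773 encode zinc finger proteins. Of the 10 neighbours named as Zfp or Zscan genes, 8 were below 0.

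At the Snrpn locus, the region of the Prader-Willi and Angelman syndromes, all 5 genes with at least 0.25 RPKM were below 0. Peg12, an intronless gene for an inhibitor of GSK3, had 2.06 RPKM in WT and 0.33 RPKM in G34R cells, 6.24-fold lower (4.76 to 8.17). The other paternally expressed genes lay within 2-fold. Snrpn itself, a component of the splicing machinery, had 35.53 and 21.22 RPKM, with 5.59% of its 50-base stretches also found elsewhere. Ndn, of the MAGE family, had 3.80 and 2.16 RPKM, and Mkrn3, a ring finger gene, had 2.11 and 1.12 RPKM. Magel2, another MAGE gene, had 0.10 and 0.06 RPKM. The ubiquitin ligase gene Ube3a, which is maternally expressed in neurons and from both alleles in most other cells, had 12.67 and 9.46 RPKM.

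The paternally expressed genes Impact and Mest were also lower. Impact, a regulator of translation under amino acid stress, had 28.83 RPKM in WT and 9.10 RPKM in G34R cells, 3.17-fold lower (3.02 to 3.32). Mest, of the alpha/beta hydrolase family and long known as a paternally expressed growth gene, had 23.67 and 10.65 RPKM, 2.22-fold lower (2.13 to 2.32), just outside the threshold. Copg2, which overlaps the end of Mest on the other strand, had 10.23 and 9.51 RPKM. The RPKM were counted by strand, so reads of this pair can be told apart.

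Several abundant imprinted genes differed little. Peg10, a retrotransposon-derived gene needed for the placenta, was the highest of the list with 45.63 RPKM in WT and 56.93 RPKM in G34R cells, 1.25-fold higher (1.23 to 1.27). Its head-to-head neighbour Sgce had 0.53 and 0.87 RPKM, the neuronal scaffold gene Ppp1r9a had 2.03 and 3.34 RPKM, and Asb4 stayed under the filter (0.06 and 0.03 RPKM). Slc38a4, an amino acid transporter, had 24.98 and 19.31 RPKM. Mcts2, a retrogene inside H13, had 17.01 and 13.61 RPKM, and its host H13 had 1.53 and 1.18 RPKM. The other 8 genes with at least 0.25 RPKM, at the Nnat, Zrsr1, Plagl1, Gnas, Inpp5f and Trappc9-Kcnk9 loci, were all within 2-fold, with log2 ratios from -0.69 to 0.68.

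Imprints are read and kept by a known set of factors, among them ZFP57, which binds methylated control regions and recruits TRIM28, and DNMT1 with UHRF1, which copy methylation at replication. All 20 regulators of the list had at least 0.25 RPKM. The median log2 ratio was -0.07 (the value for all genes). By more than 2-fold, 1 was higher (5.0%, against 5.79% of all genes) and 1 lower (5.0%, against 9.64%), so neither share exceeded that of all genes. Dnmt1 had 8.14 RPKM in WT and 44.43 RPKM in G34R cells, 5.46-fold higher (5.27 to 5.65). Zfp42 (Rex1), a marker of naive ES cells on chromosome 8, had 180.30 and 16.40 RPKM, 11.0-fold lower (10.5 to 11.5). Dppa3 (Stella), which protects maternal methylation in the zygote, had 7.94 and 3.98 RPKM, just inside 2-fold. Levels were closer for Zfp57 (35.88 and 46.08 RPKM), Trim28 (326.77 and 222.49 RPKM), Uhrf1 (53.22 and 51.10 RPKM) and Dnmt3l (68.30 and 94.92 RPKM). Whether any of these RNAs bears on the imprinted genes was not tested.

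**Figure D4:**
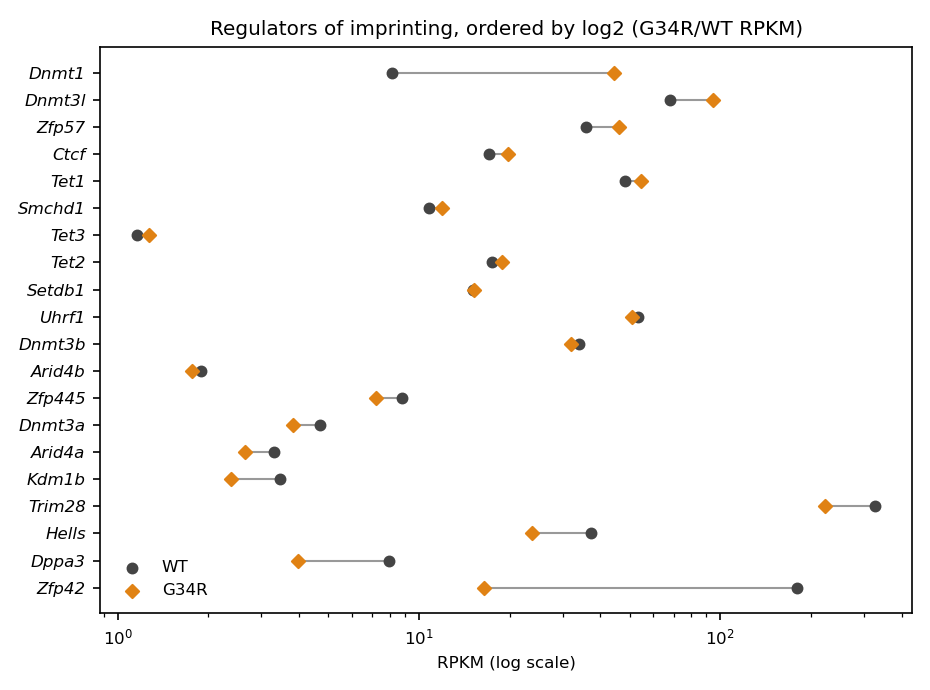
RPKM of 20 regulators of imprinting in WT (circles) and G34R (diamonds) cells on a log scale, ordered by log2 (G34R/WT RPKM). Dnmt1 and Zfp42 stand apart at the top and the bottom, and the other 18 were within 2-fold.

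Markers of other cell types moved beside these genes. In bulk RNA, fewer cells of a type and less RNA per cell cannot be told apart. Among all genes with at least 0.25 RPKM in 1 library, 9.64% were lower and 5.79% higher by more than 2-fold. Of all such ratios, 55.0% were below 0. The lists hold few genes, and no test was made. Of 10 primitive endoderm genes, 9 had at least 0.25 RPKM and all 9 had ratios above 0, of which 3 were more than 2-fold higher (33.3%). The list summed to 52.62 RPKM in WT and 86.77 RPKM in G34R cells. Among them Gata6 had 0.30 and 1.09 RPKM and Gata4 0.50 and 1.18 RPKM. Of 10 fibroblast genes, 2 had at least 0.25 RPKM (Thy1 with 1.18 and 0.71 RPKM, Acta2 with 0.74 and 0.03 RPKM), the list summed to 2.24 and 1.02 RPKM, and Prrx1, Fap, Postn and Lum were listed at 0 in both libraries. The fibroblast collagen genes were low, with 0.20 and 0.19 RPKM for Col1a1 and 0.05 and 0.02 RPKM for each of Col1a2 and Col3a1. Of 8 trophoblast genes, 6 were found by name and 2 had at least 0.25 RPKM. Of these Plac1 (0.32 and 0.03 RPKM) was more than 2-fold lower and the keratin gene Krt8 lay within 2-fold. The list summed to 8.99 and 4.58 RPKM, most of it from Krt8. Below the filter the directions were mixed. Krt7 (0.23 and 0.07 RPKM) was lower, while Cdx2 (0.04 and 0.09 RPKM) and Elf5 (0 and 0.02 RPKM) were higher, and Prl3d1 was at 0 in both. Of 8 mesoderm genes, 2 had at least 0.25 RPKM, Eomes (0.43 and 1.88 RPKM) and Hand1 (0.14 and 0.26 RPKM). The list summed to 0.90 and 2.74 RPKM, led by Eomes. Under the filter, Kdr (0.14 and 0.06 RPKM) went the other way and T had 0.03 and 0.05 RPKM. The neural list summed to 37.15 and 27.69 RPKM, with Tubb3 at 35.58 and 8.36 RPKM and Olig2 at 0.03 and 17.71 RPKM. Among 10 ES cell genes, Zfp42 and Nanog (127.07 and 52.24 RPKM) were more than 2-fold lower (20.0%) and the other 8 lay within 2-fold. Of the 10 ratios, 6 were below and 4 above 0, with a median log2 ratio of -0.03. Of 6 primed epiblast genes with at least 0.25 RPKM, 3 were more than 2-fold lower (50.0%) and 3 lay within 2-fold (Dnmt3b, Pou3f1 and Cldn6). The list summed to 64.32 and 56.42 RPKM. The lower genes were Otx2, which had 5.59 and 1.42 RPKM, Zic5 with 3.52 and 1.08 RPKM and Zic2 with 2.01 and 0.52 RPKM. The part of such cells in the imprinted values was not tested.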

How the data were processed

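RNA was sequenced from WT and G34R ES cells, 1 library each, as stranded 50 bp single-end reads of total RNA. Per the methods and the submitters' notes, the authors aligned reads to mm9 with STAR 2.4.2a, imported primary alignments into Seqmonk, and deposited RPKM per gene over merged isoforms, counted by strand and corrected for transcript length, to 2 decimals. RPKM is scaled within each library, and no raw counts were used here.

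From the RPKM, ratios were computed with a floor of 0.01 RPKM. Genes were tabulated at 0.25 RPKM or more in 1 library, and called beyond 2-fold. Reads were estimated from RPKM, the summed exon length of the same gene span in GENCODE M1 (26055 of 26127 probes matched) and depths at which single-exon genes under 800 bases with fewer than 6 reads gave whole reads (mean distance to a whole read 0.099 in WT and 0.086 in G34R). These estimates differ from the authors' counts where exon lengths differ. The scripts were tested on simulated data.

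Members, lists and tests were chosen with earlier results of these data known. Genes named are every listed gene past 2-fold, every one with at least 10 RPKM in 1 library, the remaining genes of their loci, and from other lists those past 2-fold with at least 1 RPKM. Other genes of those lists (Pou5f1, Sox2, low markers and regulators within 2-fold), H3f3a, Hprt and single neighbours were named after their values were seen. Software was SciPy 1.17.1 and NumPy 2.4.6 under Python 3.11.15, with matplotlib 3.10.9 for plots. The ChIP-seq of the study was not analysed here.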

Additional observations from a re-analysis of the deposited data

How the results depend on the processing

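Adding 0.01 RPKM to every value, scaling both samples to the same sum of RPKM (a factor of 1.03), centring on the median of all genes with at least 1 RPKM (-0.05) or of each chromosome, and raising or removing the filter on low RPKM left the counts of lower genes between 8 and 11 and of higher genes between 3 and 5. Under these and the alternatives below, the median log2 ratio of all the imprinted genes ran from -0.37 to -0.27. With 1 RPKM added, 7 genes were lower and 2 higher. Dlk1, Dio3, Usp29, Igf2 and Slc22a18, which lie near or below 1 RPKM, came back within 2-fold. The median log2 ratio of paternally expressed genes was then -0.34. At a 1.5-fold threshold 16 genes were lower and 8 higher. Without the Dlk1-Dio3 locus, chosen after seeing the data, 5 genes were lower and the median of maternally expressed genes was 0.15. Leaving out 4 genes with over 5% of their 50-base stretches elsewhere in the genome, also chosen after seeing the data, removed Rian and Snrpn from the 39 (Rtl1 and Slc22a2 were already under the filter) and gave 9 lower and 4 higher genes.

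Of 155 log2 ratios of 31 named genes under 5 alternatives, 124 stayed within the counting interval and none changed sign. Adding the same RPKM to both values cannot change a sign, and the other alternatives shifted ratios only a little. The lack of sign changes therefore says little. Phlda2 passed 2-fold under 1 of the alternatives. No paired analysis was possible because there was 1 library per cell line, and for the same reason none was left out. With 1 G34R line, the allele and any difference between the cultures cannot be told apart.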

Other observations

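A further 40 genes of imprinted domains, many of them imprinted only in the placenta or with disputed imprinting, were tabulated in the same way. Of these 34 were found by name and 21 had at least 0.25 RPKM. The median log2 ratio was -0.20, 4 of the 21 were more than 2-fold lower in G34R cells (where 9.64% of all genes were) and none higher (where 5.79% of all genes were), and with 1 library per line no test was possible. Smoc1, a secreted calcium-binding protein gene on chromosome 12, had 7.14 RPKM in WT and 1.83 RPKM in G34R cells, 3.90-fold lower (3.53 to 4.32). Sfmbt2, a Polycomb protein gene imprinted in the placenta, had 4.06 and 1.74 RPKM, 2.33-fold lower (2.18 to 2.50).

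The other lower genes lie between H19 and Kcnq1 on chromosome 7. Ascl2, a transcription factor gene of the trophoblast, had 3.18 and 1.16 RPKM, 2.74-fold lower (2.27 to 3.36). Tspan32 had 0.61 and 0.05 RPKM, 12.2-fold lower (6.37 to 23.9) from an estimated 156 and 11 reads. Cd81 and Tssc4 of the same stretch were within 2-fold, with 33.04 and 38.14 RPKM for Cd81 and 8.62 and 7.14 RPKM for Tssc4. Nap1l4, on the far side of Kcnq1, was also within 2-fold at 35.90 and 31.34 RPKM. Zdbf2, paternally expressed on chromosome 1, had 8.76 and 15.27 RPKM, the highest ratio among these 21 genes.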
